A study of Homo sapiens with 6 samples.

Results

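The genes described here are 10 members of the epidermal growth factor (EGF) receptor system, found by gene name among the 58735 genes of the deposited table: the receptors EGFR, ERBB2 and ERBB3, the ligands AREG, EREG, HBEGF, TGFA, BTC and NRG1, and the feedback inhibitor ERRFI1. They were measured by sequencing of polyadenylated RNA in AZ-521, a human line labelled as gastric, although its origin has been traced to a duodenal tumour. All cultures carried the label of wild-type genotype, and the line stands for 1 tumour only. The PD group, with 3 samples, had been given 10 µM platycodon D, a triterpenoid saponin of the balloon flower root, for 48 h. The DMSO group, with 3 samples, had been given the solvent for the same time. Whether the samples of a group were separate cultures is not stated, and p-values therefore measure the spread among 3 samples that may differ only technically.

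Ligands of this family are made as membrane-anchored precursors, and a metalloprotease cuts most of them free. A released ligand brings receptors together in pairs, which switches on their kinase domains and, through adaptor proteins, the RAS and ERK pathway. AREG, TGFA and EGF itself bind EGFR, EREG, HBEGF and BTC bind EGFR and ERBB4, and neuregulins such as NRG1 bind ERBB3 and ERBB4, while ERBB2 has no known ligand and acts as a partner. In the gut epithelium the system drives growth and repair.

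Over the whole series, reads assigned to genes summed to between 15328454 and 15821524 in the PD samples and between 14915538 and 16341687 in the DMSO samples. DMSO replicate 1 and PD replicate 3 stood apart from the other samples on the second principal component. The deviations of these samples from their group means fell with transcript GC content (Spearman rho of -0.64 and -0.52). In PD replicates 1 and 2 rho was 0.606 and 0.021, and in DMSO replicates 2 and 3 it was 0.462 and 0.535. As deviations within a group balance each other, rho alone cannot tell which samples were shifted. Levels are given as FPKM, fragments scaled for gene length and for a divisor per library, so that genes can be set side by side. Relative to the reads summed over genes, that divisor was 1.0019, 0.9974 and 0.9474 in PD replicates 1 to 3. In DMSO replicates 1 to 3 it was 1.0297, 1.0999 and 1.0802, higher than in every PD sample. With equal totals of these reads, the median log2 fold change (PD minus DMSO) over all tested genes was -0.099, against 0.001 as deposited. Of 12 epithelial markers 11 stayed under 1 FPKM in every sample, and KRT18, KRT19, KRT20 and GRHL2 were listed at 0. The exception was CLDN4, with 2.20 to 3.25 FPKM in PD samples and 0.928 to 1.23 FPKM in DMSO samples. Of 10 gastric markers 8 stayed under 1 FPKM, whereas SOX2 had 31.9 to 37.8 and GATA6 41.6 to 49.6 FPKM in PD samples, against 37.4 to 40.8 and 35.2 to 38.9 FPKM in DMSO samples. Of 8 intestinal markers 7 stayed under 1 FPKM. The exception was CDX2, with 0.979 to 1.44 FPKM in PD samples and 1.01 to 1.59 FPKM in DMSO samples. The 7 mesenchymal markers summed to 88.2 to 108 FPKM in PD samples and to 117 to 134 FPKM in DMSO samples, most of it VIM, and 4 of the 7 stayed under 1 FPKM. CDH2, or N-cadherin, was named after its values were seen. It fell, with 4.89, 5.05 and 6.17 FPKM in PD samples, against 13.86, 10.99 and 11.3 FPKM in DMSO samples (adjusted p = 0.00162 in limma). Of the 3 mesenchymal markers tested 2 fell, the other being VIM (adjusted p = 0.0367 in limma), whose call was lost in 7 other fits. ZEB1 had 9.59, 11.25 and 11.9 FPKM in PD samples and 11.9, 9.19 and 9.01 FPKM in DMSO samples. Its groups overlapped (adjusted p = 0.541 in limma). All 6 blood and endothelial markers were under 1 FPKM. The part of these marker differences in the results below was not tested.

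Within the family, 1 member rose and 2 fell after PD. HBEGF, a heparin-binding ligand, rose, and the ligands BTC, or betacellulin, and NRG1, or neuregulin 1, fell to 0.434 and 0.552 of their DMSO means. The receptors EGFR and ERBB2, the most abundant ligands AREG and EREG, and TGFA and ERRFI1 did not pass the test. A gene rose or fell here when its adjusted p was under 0.05 in limma, fitted to log2(FPKM + 1) over all 13579 genes with at least 1 FPKM in at least 3 samples, with the Benjamini-Hochberg adjustment over all of them. By this measure 14.3% of all tested genes rose and 12.7% fell, so that 1 rise and 2 falls among the 9 members tested lay near the background. With a 2-fold change required as well, 2.84% of tested genes were higher and 0.979% lower, and of the members BTC alone was among them. ERBB3 reached 1 FPKM in 2 samples and was not tested. The groups did not overlap in 5 of the 9 members tested, while 44.4% of all tested genes showed the same.

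**Figure D1:**
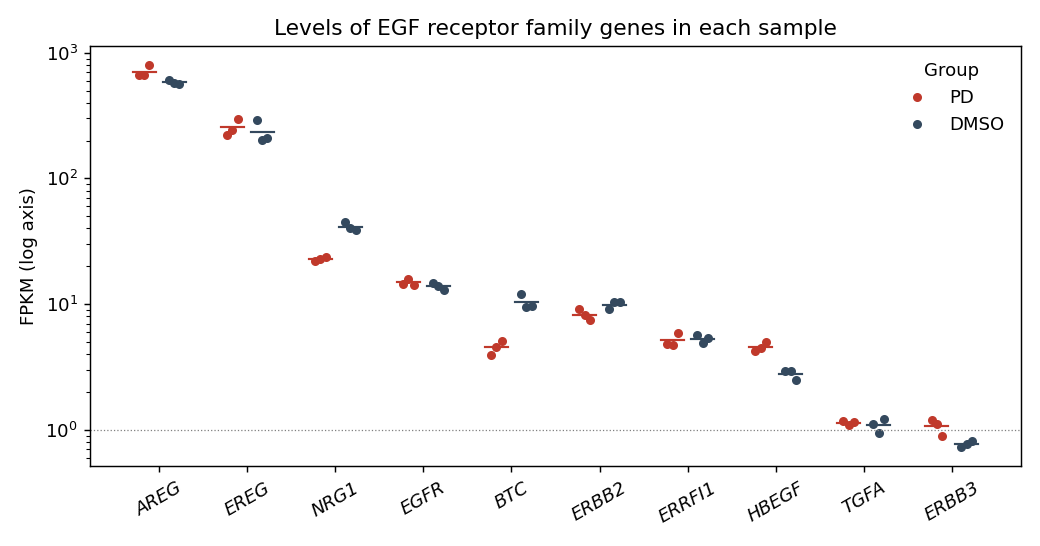
FPKM on a log axis for each member in the 3 PD samples (red) and the 3 DMSO samples (dark), ordered by the DMSO mean. Points are samples in replicate order, short lines are group means, and the dotted line marks 1 FPKM. AREG and EREG stand far above the rest in both groups. The groups do not overlap in NRG1, BTC, HBEGF, AREG and ERBB2, nor in the untested ERBB3, while 44.4% of all tested genes show the same.

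AREG (amphiregulin, ENSG00000109321, GRCh38 chromosome 4, 74445134 to 74455009, plus strand) was the member with the highest level in both groups. It had 660, 664 and 799 FPKM in PD replicates 1 to 3, against 603, 572 and 567 FPKM in DMSO replicates 1 to 3. Every PD sample lay above every DMSO sample, with PD replicate 3 the highest. Means were 708 ± 78.7 FPKM in PD samples and 581 ± 19.3 FPKM in DMSO samples (SD, n = 3 each). Among protein-coding genes AREG ranked 22 by its mean in PD samples and 18 in DMSO samples. The log2 fold change was 0.28 ± 0.11 (SE, n = 3 per group), with a 95% interval of 0.02 to 0.54 and an adjusted p of 0.103 in limma. It passed after a correction for transcript GC content and with weights for sample quality (adjusted p = 0.0393 and 0.0384 in limma). Under quantile scaling, which replaces each value by the mean of its rank, the sign turned and the value passed at -0.46 (adjusted p = 0.0151 in limma).

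EREG (epiregulin, ENSG00000124882, chromosome 4, 74365143 to 74388751, plus strand), which lies 56383 bases before AREG, was second in both groups. It had 221, 245 and 298 FPKM in PD samples and 293, 204 and 209 FPKM in DMSO samples. The groups overlapped, and the high values belonged to PD replicate 3 and DMSO replicate 1, the samples that stood apart. Without both, the log2 fold change was 0.17 (adjusted p = 0.181 in limma). On the log2 scale the difference was 0.12 ± 0.17 with a 95% interval of -0.29 to 0.53 (adjusted p = 0.638 in limma), and it turned to -0.29 under quantile scaling. The EREG transcript had a GC content of 36.1%, the lowest of the 10 members.

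BTC (betacellulin, ENSG00000174808, minus strand) lies in the same stretch of chromosome 4, at 74744759 to 74794686, and fell. It had 3.93, 4.53 and 5.09 FPKM in PD samples, against 12.02, 9.52 and 9.68 FPKM in DMSO samples. All PD samples lay well below all DMSO samples, with means of 4.52 ± 0.582 FPKM in PD samples and 10.4 ± 1.40 FPKM in DMSO samples (SD, n = 3 each). Behind these values stood 170, 196 and 215 reads in PD samples and 520, 457 and 481 reads in DMSO samples. The log2 fold change was -1.05 ± 0.12 (SE, n = 3 per group, adjusted p = 0.00159 in limma), and 113 of the tested genes fell further. It kept its sign and passed in all 18 other fits, between -1.20 and -0.95, and stood at -1.02 without both samples that stood apart (adjusted p = 0.0029 in limma).

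These 3 genes share a window of 429544 bases that holds 5 annotated genes. The other two are noncoding genes annotated as antisense. AC021180.1 had 2 to 13 reads in PD samples and 3 to 12 reads in DMSO samples. AC239584.1, between AREG and BTC, had 3.38, 5.69 and 4.83 FPKM in PD samples and 7.65, 5.53 and 3.87 FPKM in DMSO samples, with overlapping groups (adjusted p = 0.505 in limma). Of the tested genes in the window BTC was thus the one that passed.

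The promoters of the 4 ligand genes AREG, EREG, BTC and HBEGF are shown because these genes differ widely in level and in response, and because 3 of them are neighbours. Each window runs from 250 bases before to 50 bases after the gene start in RefSeq (GRCh38.p14), written 5′ to 3′ along the gene. Capitals mark a TATA box (TATAAA), a cyclic AMP response element or its short form (TGACGTCA, TGACG), an AP-1 site (TGACTCA or TGAGTCA) or a GC box (GGGCGG), each searched on both strands with overlaps counted. The windows are chr4:74444886-74445185 (plus) for AREG, chr4:74364895-74365194 (plus) for EREG, chr4:74794474-74794773 (minus) for BTC and chr5:140346554-140346853 (minus) for HBEGF.
AREG: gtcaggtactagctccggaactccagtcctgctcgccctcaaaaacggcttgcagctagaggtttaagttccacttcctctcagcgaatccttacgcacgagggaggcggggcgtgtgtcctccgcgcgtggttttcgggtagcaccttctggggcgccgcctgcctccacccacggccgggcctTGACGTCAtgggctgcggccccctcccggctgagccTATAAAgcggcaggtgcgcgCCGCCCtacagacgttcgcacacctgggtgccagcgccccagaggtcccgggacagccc
EREG: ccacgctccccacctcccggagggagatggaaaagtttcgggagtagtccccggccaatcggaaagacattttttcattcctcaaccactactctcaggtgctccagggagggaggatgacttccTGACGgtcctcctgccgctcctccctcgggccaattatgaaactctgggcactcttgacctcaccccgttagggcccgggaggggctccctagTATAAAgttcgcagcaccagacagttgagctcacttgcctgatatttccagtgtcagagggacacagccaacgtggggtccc
BTC: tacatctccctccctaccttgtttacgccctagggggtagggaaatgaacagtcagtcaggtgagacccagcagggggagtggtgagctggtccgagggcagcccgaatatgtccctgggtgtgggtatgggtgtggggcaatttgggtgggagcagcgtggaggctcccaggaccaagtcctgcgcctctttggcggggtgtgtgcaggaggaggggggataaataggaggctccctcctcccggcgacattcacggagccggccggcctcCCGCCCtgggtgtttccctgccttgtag
HBEGF: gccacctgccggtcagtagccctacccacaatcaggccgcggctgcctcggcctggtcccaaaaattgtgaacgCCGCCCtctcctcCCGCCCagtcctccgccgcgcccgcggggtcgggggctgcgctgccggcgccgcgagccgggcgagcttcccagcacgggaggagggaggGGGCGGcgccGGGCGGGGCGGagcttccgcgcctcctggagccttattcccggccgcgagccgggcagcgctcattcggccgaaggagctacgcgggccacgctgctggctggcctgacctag

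The windows of the high-level ligands AREG and EREG held TATAAA, at -29 and -32 relative to the gene start, and those of BTC and HBEGF did not. That motif was found in 11.5% of the 35116 RefSeq windows. Only the exact word was searched, and the BTC window reads ataaata shortly before its gene start, which that word does not match. The AREG window held the full element TGACGTCA at -65, as did 1.85% of all windows, and its 2 overlapping short forms match at the same place. EREG held the short form at -125, as did 24.6% of all windows. HBEGF held 5 matches to GGGCGG, of which 2 overlap, AREG and BTC held 1 each and EREG none, against a share of 45% of windows with at least 1. No AP-1 match stood in these 4 windows, against 4.95% of all windows. Such matches describe the letters of the windows and say nothing of use.

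HBEGF (heparin-binding EGF-like growth factor, ENSG00000113070, chromosome 5, 140332843 to 140346631, minus strand) was the member that rose. It had 4.21, 4.47 and 4.95 FPKM in PD samples, against 2.96, 2.95 and 2.48 FPKM in DMSO samples. All PD samples lay above all DMSO samples, and the values rested on 195, 207 and 224 reads in PD samples and 137, 152 and 132 reads in DMSO samples. Means were 4.54 ± 0.378 FPKM in PD samples and 2.80 ± 0.275 FPKM in DMSO samples (SD, n = 3 each). The ratio of mean FPKM, without the added 1, was 1.62. On the log2 scale of FPKM + 1 the rise was 0.55 ± 0.10 (SE, adjusted p = 0.00892 in limma), and 1392 of the tested genes rose further. It passed in 16 of the 17 other fits that tested it, among them those without each sample in turn. It did not pass with replicate number as a block (adjusted p = 0.053 in limma). Without both samples that stood apart it was 0.53 (adjusted p = 0.0199 in limma).

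NRG1 (neuregulin 1, ENSG00000157168, GRCh38 chromosome 8, 31639386 to 32767959, plus strand) was next by level after AREG and EREG in both groups. It had 21.96, 22.8 and 23.9 FPKM in PD samples, against 44.6, 40.5 and 39.2 FPKM in DMSO samples. The PD samples lay close together, with a coefficient of variation of 4.24% against 6.83% in DMSO samples, and well below all DMSO samples. Means were 22.9 ± 0.969 FPKM in PD samples and 41.4 ± 2.83 FPKM in DMSO samples (SD, n = 3 each). In read numbers these were 3821, 3963 and 4057 in PD samples and 7763, 7815 and 7842 in DMSO samples. NRG1 fell, with a log2 fold change of -0.83 ± 0.09 (SE, n = 3 per group, adjusted p = 0.00101 in limma), and all 18 other fits passed, between -0.95 and -0.78, with -0.81 without both samples that stood apart (adjusted p = 0.00256 in limma). NRG1 ranked 1784 among protein-coding genes by its mean in PD samples and 742 in DMSO samples. The table gives 1 value over all isoforms, so that the many neuregulin 1 forms could not be told apart. Nor can fewer cells with a transcript and less of it per cell be told apart in bulk RNA, here and for the other genes.

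TGFA (transforming growth factor alpha, ENSG00000163235, chromosome 2, 70447280 to 70554193, minus strand) was the least abundant ligand among the members. It had 1.18, 1.09 and 1.14 FPKM in PD samples and 1.12, 0.945 and 1.21 FPKM in DMSO samples, and the PD values fell inside the DMSO range. With 80 to 106 reads per sample its log2 fold change was 0.03 ± 0.12, with a 95% interval of -0.24 to 0.31 (adjusted p = 0.859 in limma). The sign turned without DMSO replicate 2 (-0.02) and with equal totals (-0.03).

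**Figure D2:**
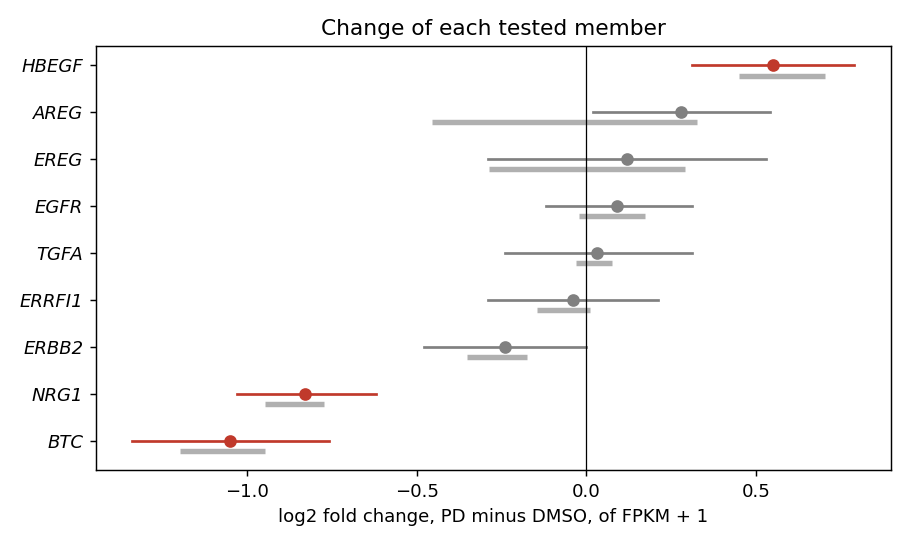
Log2 fold change, PD minus DMSO, of FPKM + 1 for the 9 tested members. Points and thin lines are the estimate and its 95% interval (red where the adjusted p is under 0.05), and the thick grey bar under each is the range over the other fits; the bars of HBEGF, NRG1 and BTC stay on one side of 0, while the AREG bar runs to -0.46 under quantile scaling.

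The shares of AREG, HBEGF, NRG1 and BTC in the ligand messages did not overlap between the groups. The shares were not tested, and as parts of 1 sum they depend on each other. By FPKM, the groups did not overlap in 44.4% of all tested genes. AREG itself did not pass the test (adjusted p = 0.103 in limma), and its sign turned under quantile scaling. AREG and EREG together made up most of the summed FPKM of the 6 ligands in every sample. AREG held 72.4, 70.5 and 70.6% of the sum in PD samples and 63.0, 68.9 and 68.5% in DMSO samples. NRG1 held 2.41, 2.42 and 2.11% in PD samples, against 4.66, 4.88 and 4.73% in DMSO samples. BTC held 0.431, 0.481 and 0.450% in PD samples, against 1.26, 1.15 and 1.17% in DMSO samples. The ratio of BTC to HBEGF, both ligands of EGFR and ERBB4, was 0.934, 1.01 and 1.03 in PD samples and 4.07, 3.22 and 3.91 in DMSO samples. BTC was thus level with HBEGF in PD samples and well above it in DMSO samples. In the order of levels, the ranges of ERRFI1, HBEGF and BTC overlapped their neighbours' in PD samples, as did those of TGFA and ERBB3. In DMSO samples this held for BTC and ERBB2, and all other neighbours were separate.

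EGFR (ENSG00000146648, chromosome 7, 55019021 to 55211628, plus strand), the receptor of most of these ligands, had the highest level of the 3 receptors among the members. It had 14.5, 15.9 and 14.2 FPKM in PD samples and 14.8, 14.0 and 12.8 FPKM in DMSO samples. The groups overlapped. Its log2 fold change was 0.09 ± 0.09, with a 95% interval of -0.12 to 0.31 (adjusted p = 0.48 in limma), and it turned to -0.02 with equal totals. The antisense gene EGFR-AS1, which overlaps it, had 1 to 7 reads in PD samples and 1 to 10 reads in DMSO samples, against at least 2659 for EGFR.

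ERBB2 (ENSG00000141736, chromosome 17, 39687914 to 39730426, plus strand), the partner receptor without a ligand, had 9.12, 8.24 and 7.41 FPKM in PD samples and 9.13, 10.3 and 10.3 FPKM in DMSO samples. All PD values lay below all DMSO values, though PD replicate 1 and DMSO replicate 1 were nearly equal. The log2 fold change was -0.24 ± 0.10 (adjusted p = 0.119 in limma). It passed after GC correction and with sample weights (adjusted p = 0.00559 and 0.0157 in limma). Its transcript had a GC content of 57.5%, the highest of the 10 members. MIEN1 and PGAP3 overlap ERBB2 on the opposite strand, with 145 to 223 reads in PD samples and 130 to 208 reads in DMSO samples, and no source used here says whether the counting used the strand. The ratio of EGFR to ERBB2 was 1.59, 1.94 and 1.91 in PD samples and 1.62, 1.36 and 1.25 in DMSO samples, with the groups overlapping through both replicates 1.

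ERBB3 (ENSG00000065361, chromosome 12, 56076799 to 56103505, plus strand), a neuregulin receptor with a weak kinase, was the least abundant member. It had 1.196, 1.11 and 0.900 FPKM in PD samples and 0.728, 0.772 and 0.821 FPKM in DMSO samples, from 122 to 166 reads in PD samples and at most 131 reads in DMSO samples. All PD samples lay above all DMSO samples. With no filter on low values its log2 fold change was 0.22 ± 0.12, with an adjusted p of 0.35 in limma over 32355 genes. AC034102.2, a gene annotated over the same strand, was listed at 0 in every sample, and reads from shared sequence could have been left out of both genes.

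ERRFI1 (ENSG00000116285, chromosome 1, 8004404 to 8026308, minus strand) encodes MIG6, which is made on receptor signalling and binds and blocks the receptor kinase. It had 4.85, 4.71 and 5.91 FPKM in PD samples and 5.71, 4.90 and 5.36 FPKM in DMSO samples. The groups overlapped, and the high values were again those of PD replicate 3 and DMSO replicate 1. Its log2 fold change was -0.04 ± 0.11, with a 95% interval of -0.29 to 0.21 (adjusted p = 0.808 in limma). The sign turned without PD replicate 2 (0.01) and without DMSO replicate 1 (0.002). The antisense gene AL034417.4 overlaps it, with 46 to 84 reads in PD samples and 73 to 85 reads in DMSO samples.

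**Figure D3:**
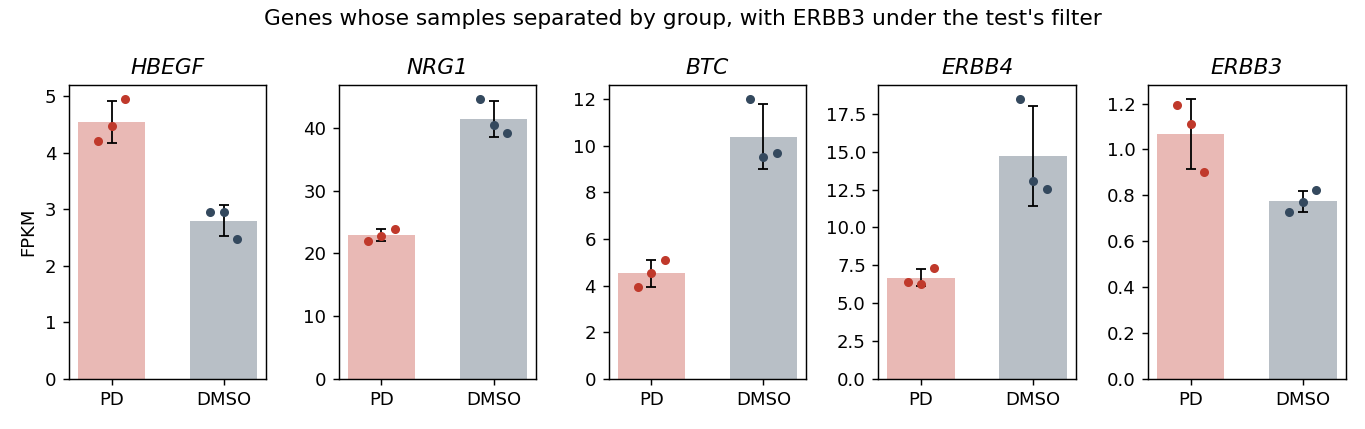
FPKM (linear axes from 0, a separate scale per gene) of HBEGF, NRG1, BTC, ERBB4 and ERBB3 in PD and DMSO samples. Bars are means, whiskers SD (n = 3) and points samples. In each gene the PD points all lie on one side of the DMSO points, as in 44.4% of all tested genes. They lie above the DMSO points for HBEGF and ERBB3 and below them for the others.

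Of the 6 other receptors and ligands of the family, the 2 that passed the filter both fell, while 12.7% of all tested genes fell. ERBB4, the receptor shared by NRG1, BTC, EREG and HBEGF, had 6.42, 6.28 and 7.33 FPKM in PD samples, against 18.5, 13.1 and 12.6 FPKM in DMSO samples. All PD samples lay below all DMSO samples, and the log2 fold change was -1.02 ± 0.15 (SE, n = 3 per group, adjusted p = 0.00363 in limma). The ERBB4 mean was 14.7 FPKM in DMSO samples, against 13.9 FPKM for EGFR. In PD samples the means were 6.68 FPKM for ERBB4 and 14.9 FPKM for EGFR. NRG2, another neuregulin, had 1.30, 1.33 and 1.33 FPKM in PD samples, against 1.79, 2.15 and 2.16 FPKM in DMSO samples. Its log2 fold change was -0.39 ± 0.11 (adjusted p = 0.0379 in limma). It did not pass without PD replicate 1, 2 or 3 or DMSO replicate 2 or 3 (adjusted p = 0.0963, 0.102, 0.0627, 0.127 and 0.129 in limma). Nor did it pass with no filter on low values or with replicate number as a block (adjusted p = 0.0978 and 0.108 in limma). EGF, EPGN and NRG4 stayed under 1 FPKM in every sample and NRG3 was listed at 0, so of the neuregulin genes NRG1 and NRG2 were the ones tested, and both fell. The median log2 fold change over all tested genes was 0.00.

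In the ligand shedding list 1 of 7 tested genes rose and 0 fell, against 14.3% and 12.7% of all tested genes. The list median was 0.06. ADAM9, a membrane metalloprotease, had 51.1, 59.2 and 65.0 FPKM in PD samples, against 46.6, 37.0 and 34.9 FPKM in DMSO samples, with the groups apart. ADAM9 rose by 0.56 ± 0.14 on the log2 scale (adjusted p = 0.0241 in limma). The call was lost when PD replicate 2, PD replicate 3, DMSO replicate 2 or DMSO replicate 3 was left out (adjusted p = 0.0815, 0.0579, 0.0796 and 0.0813 in limma). It was also lost with no filter and with replicate number as a block (adjusted p = 0.0687 and 0.0873 in limma). ADAM10, which sheds BTC, had 12.1, 12.8 and 14.5 FPKM in PD samples and 16.4, 13.1 and 12.4 FPKM in DMSO samples (adjusted p = 0.679 in limma), and its sign turned without DMSO replicate 1 (0.04). RHBDF1, a partner of the sheddase ADAM17, had 16.0, 18.2 and 13.1 FPKM in PD samples and 13.1, 18.1 and 18.3 FPKM in DMSO samples. Its log2 fold change was -0.06 ± 0.16 (adjusted p = 0.812 in limma), with the sign turned without PD replicate 3, DMSO replicate 2 or DMSO replicate 3 (0.06, 0.01 and 0.02). ADAM17, which sheds AREG, EREG, HBEGF and TGFA and is named here after its values were seen, had 4.85, 5.81 and 5.21 FPKM in PD samples and 6.58, 6.19 and 6.22 FPKM in DMSO samples (adjusted p = 0.113 in limma).

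Of 28 tested adaptors and effectors downstream of the receptors 3 rose and 2 fell, and the list median was -0.05. Among all tested genes the shares were 14.3% and 12.7%. SHC1, an adaptor that docks on activated receptors, had 31.6, 31.9 and 28.3 FPKM in PD samples, against 15.7, 19.8 and 19.8 FPKM in DMSO samples. It rose by 0.71 ± 0.11 on the log2 scale (adjusted p = 0.00485 in limma). PIK3R1, the main regulatory subunit of PI3 kinase, had 0.968, 0.883 and 1.27 FPKM in PD samples, against 3.37, 2.51 and 2.62 FPKM in DMSO samples. PIK3R1 fell by 0.91 ± 0.14 on the log2 scale (adjusted p = 0.00386 in limma). PIK3R3, another regulatory subunit, had 2.80, 2.93 and 3.03 FPKM in PD samples and 2.11, 1.56 and 1.77 FPKM in DMSO samples, a rise of 0.48 ± 0.11 (adjusted p = 0.018 in limma). These subunits thus moved in opposite directions, although PIK3R3 did not pass without PD replicate 2, DMSO replicate 2 or DMSO replicate 3 (adjusted p = 0.0649, 0.0693 and 0.0625 in limma). Nor did PIK3R3 pass with no filter or with replicate number as a block (adjusted p = 0.0543 and 0.0702 in limma). GRB7, an adaptor encoded beside ERBB2, had 2.90, 2.53 and 1.67 FPKM in PD samples and 0.959, 1.06 and 1.09 FPKM in DMSO samples. It rose by 0.71 ± 0.16 (adjusted p = 0.0167 in limma), but leaving out PD replicate 1 or PD replicate 2 ended the call (adjusted p = 0.0559 and 0.0665 in limma). So did using no filter or replicate number as a block (adjusted p = 0.0604 and 0.0522 in limma). The other gene that fell, SOS1, a RAS activator named after its values were seen, stood at -0.46 (adjusted p = 0.0458 in limma). It did not pass without any sample other than PD replicate 3 (adjusted p = 0.0723 to 0.13 in limma). Nor did it pass with no filter, without the variance trend or with replicate number as a block (adjusted p = 0.112, 0.0528 and 0.128 in limma).

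Of 24 tested genes that traffic or restrain the receptors 1 rose and 3 fell, with a list median of -0.04. Again, 14.3% of all tested genes rose and 12.7% fell. RNF41, a ubiquitin ligase that marks ERBB3 for degradation, had 3.18, 3.34 and 3.61 FPKM in PD samples, against 5.88, 6.23 and 6.86 FPKM in DMSO samples. Its log2 fold change was -0.74 ± 0.09 (adjusted p = 0.00207 in limma), and the samples were widely apart. SH3KBP1, a partner of the receptor ubiquitin ligase CBL, and LRRK1, a kinase of EGFR-bearing endosomes, fell by 0.59 ± 0.10 and by 0.52 ± 0.10 on the log2 scale (adjusted p = 0.00657 and 0.00811 in limma). SOCS3, which is best known as a brake on cytokine receptors, had 8.60, 7.26 and 5.71 FPKM in PD samples and 4.14, 4.89 and 3.94 FPKM in DMSO samples. It rose by 0.61 ± 0.15 (adjusted p = 0.0214 in limma), but the call was lost when PD replicate 1, PD replicate 2 or DMSO replicate 3 was left out (adjusted p = 0.0579, 0.0727 and 0.0722 in limma) and with equal totals or no filter (adjusted p = 0.0518 and 0.0661 in limma).

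**Figure D4:**
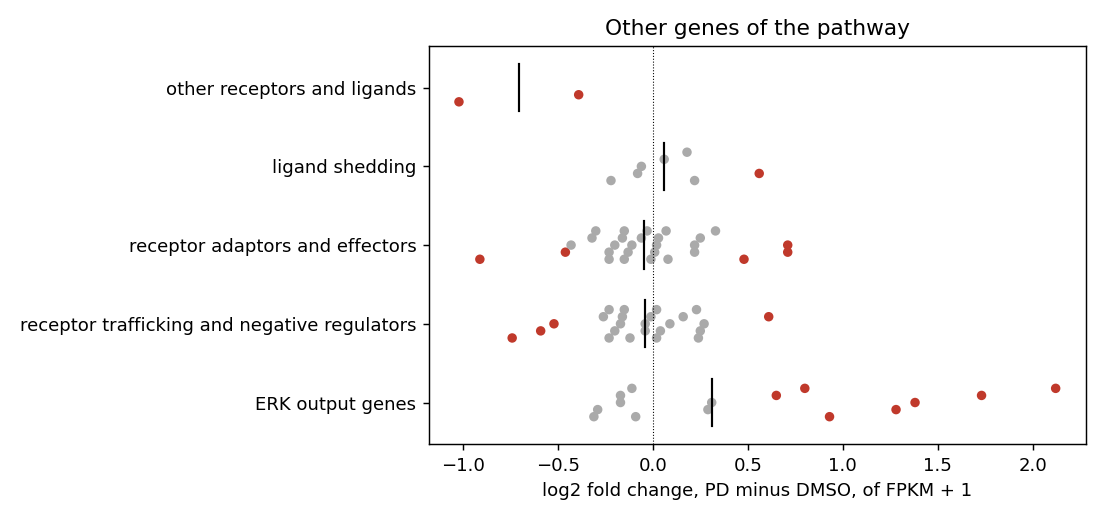
Log2 fold change, PD minus DMSO, of FPKM + 1 for the tested genes of 5 pathway lists. Points are genes, red where the adjusted p is under 0.05, and black ticks are list medians. Most adaptor and trafficking genes lie near 0, and both tested genes of the other receptors and ligands lie below it. In red above 0 are 7 of 15 ERK output genes, while 14.3% of all tested genes rose.

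Among genes that ERK signalling is known to switch on, 7 of 15 tested rose and 0 fell, and the list median was 0.31. Over all tested genes 14.3% rose and 12.7% fell. The list, like the others, was chosen with earlier results of these data known. FOS, an immediate early transcription factor, had 12.9, 12.9 and 14.3 FPKM in PD samples, against 2.27, 2.37 and 2.26 FPKM in DMSO samples, and rose by 2.12 ± 0.08 on the log2 scale (adjusted p = 2.42e-05 in limma). EGR1, IER3 and DUSP5, a nuclear phosphatase of ERK, rose by 1.28, 1.73 and 1.38 (adjusted p = 0.000895, 0.000184 and 0.000298 in limma). The 8 that did not pass stood between -0.31 and 0.31. The lowest of them, named after their values were seen, were the signalling inhibitors SPRY1 and SPRED2. They stood at -0.31 and -0.29 (adjusted p = 0.0528 and 0.0549 in limma), with all PD samples below all DMSO samples. Of the same inhibitor families, SPRY4 rose by 0.65 (adjusted p = 0.00223 in limma). SPRED1 stood at 0.29 and SPRY2 at -0.09 (adjusted p = 0.115 and 0.493 in limma). DUSP6, the cytoplasmic phosphatase of ERK, was likewise named after its values were seen. It had 43.9, 39.8 and 47.4 FPKM in PD samples and 51.0, 47.4 and 49.5 FPKM in DMSO samples (adjusted p = 0.208 in limma). DUSP4 stood highest among the 8, at 0.31 (adjusted p = 0.173 in limma).

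Genes with the most similar pattern to a member were taken as the 3 protein-coding genes with the highest Pearson correlation of log2(FPKM + 1) over the 6 samples, out of 6786 with a mean of at least 5 FPKM. For EGFR these were NFATC2IP, NSD3 and ZNF84 (0.966, 0.949 and 0.933). For AREG they were GSTO1, HERPUD1 and KDM6A (0.992, 0.991 and 0.991), and for ERRFI1 TMEM70, COX10 and H3F3B (0.993, 0.991 and 0.990). The points are the same 6 libraries in each case, with their shared depth and GC shifts.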

How the data were processed

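Stranded libraries of polyadenylated RNA were read from both ends on a HiSeq instrument, per the labels' protocols. The authors deposited 1 table of FPKM values per gene and sample with gene lengths. No source used here names the aligner or the counting program. Mouse builds, GRCm38 and mm10, stand in the submitters' processing notes, but all 58735 identifiers and positions were those of human GENCODE 29. Columns were matched to samples by group prefix and replicate number, and 27 date-like gene names were repaired through identifiers. FPKM times gene length gave whole multiples of 1 step per sample (100% of values within 0.01), from which reads were recovered. Genes with at least 1 FPKM in at least 3 samples were fitted as log2(FPKM + 1) with limma 3.58.1 in R 4.3.3 (two-sided, mean-variance trend, no covariate). A pseudocount of 1 understates changes of low genes. No samples were left out. Alternatives were other pseudocounts, filters, scalings, variance models, weights, a replicate block, left-out samples, voom on recovered reads and, chosen after seeing the data, a loess correction for transcript GC content. The members and the lists were chosen with earlier results of these data known. Named genes were all members, up to 4 passing genes per list with the largest change (or the 3 with the highest FPKM where fewer than 2 passed), and the 3 genes most like EGFR, AREG and ERRFI1. Promoter windows come from RefSeq (used for 8 of 10 members). Figures were drawn with matplotlib 3.10.9.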

Additional observations from a re-analysis of the deposited data

How the results depend on the processing

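BTC and NRG1 fell in all 18 other fits. HBEGF rose in 16 of the 17 that tested it. Same-numbered samples did not deviate together (correlations of -0.39, 0.17 and -0.16), and PD replicate 3 correlated best with DMSO replicate 1 (0.38). These deviations were taken within groups of 3 and also followed transcript GC content, so they cannot decide whether the numbers pair the samples. With the replicate block HBEGF had an adjusted p of 0.053 in limma, so 0 members rose, and 1089 genes rose and 755 fell. At a minimum mean of 5 FPKM, which leaves HBEGF out, 0 members rose, with 1254 genes up, 960 down and 3 pathway list genes down. Over all genes 1947 rose and 1731 fell, 386 and 133 of them at least 2-fold (0 and 1 among the members). With no filter 1075 fell, and 7 pathway list genes rose. With equal totals 2813 fell, 18 of them pathway list genes, and 33.4% of the genes past the test were higher, against 52.9% as deposited. Under quantile scaling 12 pathway list genes fell. With sample weights 3189 rose and 3112 fell, with 2 members rising and 17 pathway list genes falling. After GC correction 2651 fell, with 2 members rising and 14 pathway list genes falling. Without DMSO replicate 1 and PD replicate 3 together 12 pathway list genes fell. Leaving out 1 sample gave 1144 to 1877 rises and 859 to 1657 falls. Signs that turned in uncalled genes were those of EGFR (-0.021) and TGFA (-0.03) with equal totals, AREG (-0.46) and EREG (-0.29) under quantile scaling, and under left-out samples TGFA (-0.017 to 0.075), ERRFI1 (-0.127 to 0.011), RHBDF1 (-0.21 to 0.059) and ADAM10 (-0.153 to 0.036). Depth limits TGFA and ERBB3 most, with at most 166 reads per sample.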
